A study of Sus scrofa with 32 samples.

Results

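PPP1R11 and NDUFA6 each appeared as a pair of separate gene entries in the count table of this pig muscle study. The share of a pair's counts found on each entry differed widely from animal to animal. Described here are 5 of the 25322 gene entries of that table. ENSSSCG00000028347 is named PPP1R11 in the study, and ENSSSCG00000024259 carries that name in the gene names used here. They are called the first and the second PPP1R11 entry. ENSSSCG00000021119 is called NDUFA6-like in the study and ENSSSCG00000000045 is NDUFA6. ENSSSCG00000023287 has no gene name in the sources used here. The first PPP1R11 entry and the NDUFA6-like entry were selected on their breed difference in the longissimus dorsi, and the other 3 entries on values of the same libraries, so breed differences, shares and muscle differences of these entries are descriptions, given with no test.

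RNA was sequenced from 2 skeletal muscles, longissimus dorsi (LD, a loin muscle) and semimembranosus (S, a ham muscle), with 8 gilts of the Pulawska (PUL) and 8 of the Polish Landrace (PL) breed, which gave 32 libraries. All animals were untreated females, kept and fed alike, unrelated and from different farms. The labels give an age of 180 days for every animal. The study, however, slaughtered the pigs at a set body weight after fasting, and it treats age at slaughter as a trait that varied. PL pigs gained weight faster than PUL pigs, so age may have differed between the breeds. Animals are named here by the pig number in the labels: pigs 1, 2, 3, 4, 5, 13, 16 and 17 were PUL, and pigs 7, 8, 9, 10, 12, 14, 15 and 18 were PL.

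PPP1R11 encodes a small regulatory subunit that inhibits protein phosphatase 1, the enzyme that removes phosphate from serine and threonine residues of many proteins, including enzymes of glycogen metabolism in muscle. NDUFA6 encodes an accessory subunit of complex I, the first enzyme of the mitochondrial respiratory chain, and belongs to the LYR family of small mitochondrial proteins. Expression was estimated by a program that splits a read matching several transcripts into fractions and gives each transcript a part. A gene that is entered more than once in an annotation can therefore have its reads divided between its entries, and the level of 1 entry is then not the level of the gene.

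The libraries held between 8821273 and 24761853 expected counts. The skeletal muscle markers found by name, 3 of 12 (ACTA1, TNNC2 and DES), summed to between 54600 and 235000 CPM (counts scaled to a common library size) in every library. Summed CPM of 5 hepatocyte markers ran from 7.98 to 1090 (TTR and APOB had a median of 0), of the 2 red blood cell markers from 12.8 to 1070, and of 3 fibroblast markers from 79.0 to 4050. The adipocyte marker found by name reached at most 3.89 CPM, the 4 smooth muscle markers summed to between 81.1 and 272 CPM, and the 2 leukocyte markers to between 1.97 and 22.6 CPM. In bulk tissue, fewer cells of a type and less RNA per cell cannot be told apart.

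The comparison of muscles rests on the label that joins 2 libraries to 1 pig. Over 97 genes that were on in some libraries and off in others, with the 5 entries left out, both libraries of a pig resembled each other best in 10 of 16 pigs. In 3 pigs, PUL pig 1, PL pig 8 and PL pig 14, neither library resembled the other best, with correlations of 0.34, 0.16 and -0.32 between their own libraries. Differences between the muscles are given over all 16 pigs and, where stated, over the 13 pigs without these 3.

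The level of the PPP1R11 pair, scaled for library size, varied little among libraries, while the part on the first entry ranged from 2.88% to 100% of the pair's counts. In LD of PUL the first entry was measured at 1.15 to 5.12 CPM with a median of 2.14 CPM, and in S of PUL at 0.586 to 4.79 CPM with a median of 1.73 CPM. In PL it stood at 1.79 to 21.5 CPM in LD (median 15.0 CPM) and at 3.01 to 21.4 CPM in S (median 15.1 CPM). In each muscle the values of 7 of the 8 PL pigs exceeded the whole PUL range, and PL pig 15 lay within the PUL range.

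The second PPP1R11 entry showed the opposite order. It was measured at 13.1 to 23.1 CPM in LD of PUL and at 12.99 to 24.6 CPM in S of PUL. In PL it ran from 0 to 19.3 CPM in LD and from 0 to 19.8 CPM in S, and 6 of the 8 PL pigs lay below every PUL pig in each muscle. The entry had no count in either muscle of PL pigs 10 and 12, and none in S of PL pig 14. A count of 0 allows up to 3 counts of the pair, which is a share of up to 0.824% in LD and 0.655% in S of pig 10, up to 1.08% and 0.806% in pig 12, and up to 1.40% in S of pig 14.

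The sum of both PPP1R11 entries did not follow this order. It was 21.8 ± 2.89 CPM in LD of PUL, 21.3 ± 1.68 CPM in LD of PL, 21.0 ± 3.99 CPM in S of PUL and 20.2 ± 1.92 CPM in S of PL (mean ± SD, n = 8 each). The highest of the 32 sums, 26.4 CPM, was 1.79 times the lowest, 14.7 CPM, whereas the first entry alone spanned a 36.7-fold range. The breed ranges of the sum overlapped in both muscles.

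**Figure D1:**
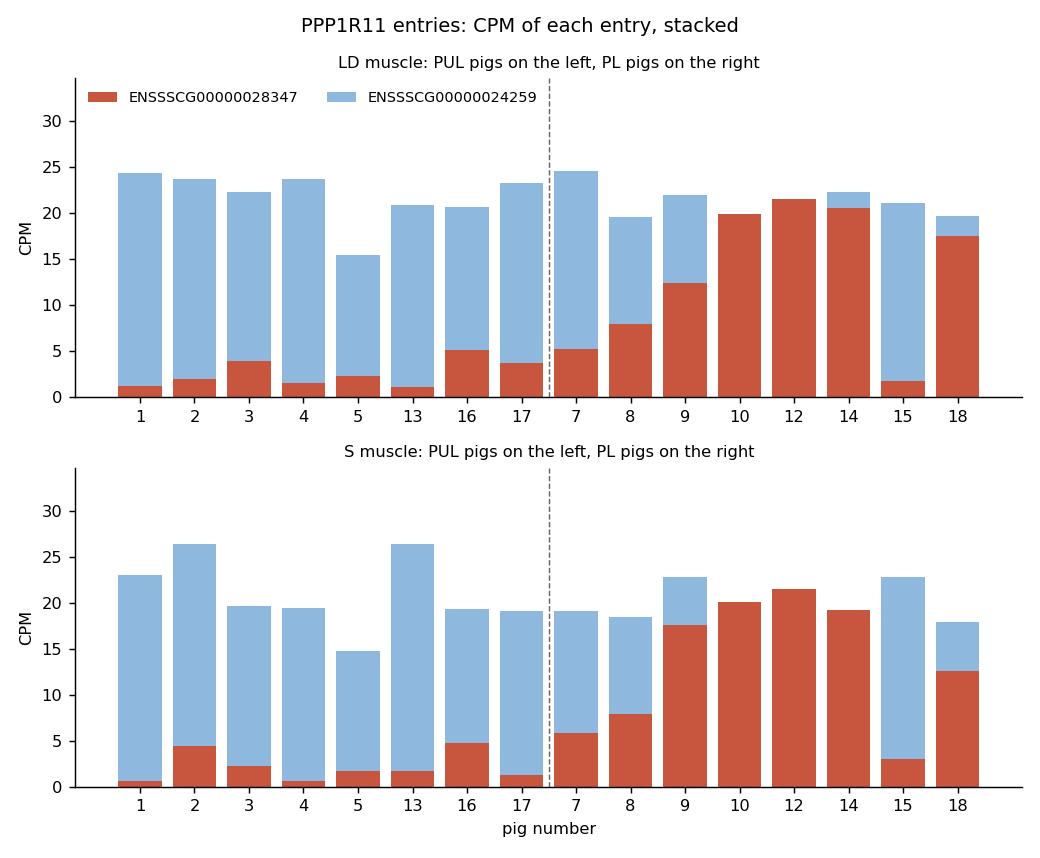
CPM of ENSSSCG00000028347 (red) and ENSSSCG00000024259 (blue), stacked for each pig (x axis, pig number) in LD (top) and S (bottom), with PUL pigs to the left of the dashed line and PL pigs to the right. The bars have nearly the same height, 14.7 to 26.4 CPM, while the red part is small in all PUL pigs and makes up the whole bar in PL pigs 10 and 12.

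As log2 differences of PL minus PUL, the first entry stood at 2.37 (SE 0.45) in LD and 2.61 (SE 0.46) in S, and the second entry at -1.26 (SE 0.72) and -1.47 (SE 0.78). For their sum the difference was -0.03 (SE 0.12) in LD and -0.05 (SE 0.13) in S. The entries thus differed by breed in opposite directions, and the difference of the sum was smaller than its standard error. When counts were scaled by library size alone, the difference of the sum in LD moved to -0.24. Over all genes, 0% of the 10792 genes tested in LD and 0% of the 10687 tested in S passed the threshold between breeds (edgeR's quasi-likelihood test, adjusted p at or under 0.05 and a fold change of at least 1.3). At an unadjusted p under 0.05 there were 772 and 1252 genes, and DESeq2 called 19 and 103.

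Expressed as its share of the pair's counts, a share that takes no account of transcript length, the first PPP1R11 entry took 2.88% to 24.9% in the 16 PUL libraries and 8.49% to 100% in the 16 PL libraries. Neither muscle of PUL pigs had a library in which the first entry held more than 50% of the pair, against 5 of 8 PL libraries in LD and 5 of 8 in S. The mean share was 63.5% ± 36.9 in LD of PL against 12.3% ± 7.11 in LD of PUL, and 66.8% ± 34.2 in S of PL against 10.6% ± 7.51 in S of PUL (SD, n = 8 each). The SD in PL was several times that in PUL, so the PL mean describes no typical animal.

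The PL pigs spread over the whole scale. In pigs 10 and 12 the first entry took 100% of the pair in both muscles, with Wilson 95% intervals that began at 98.6% or above. In pig 14 it took 91.9% in LD and 100% in S. Pig 18 stood at 89.3% in LD and 70.4% in S, and pig 9 at 56.4% and 77.0%. Pig 8 lay near the middle, at 40.8% in LD and 42.6% in S. Pigs 7 and 15 had most of their reads on the second entry, as PUL pigs did, with a first-entry share of 21.4% and 30.8% in pig 7 and of 8.49% and 13.2% in pig 15.

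The share of a PPP1R11 entry in the LD of a pig was close to the share in its S. The median absolute difference between the muscles of a pig was 6.40 percentage points in PL, against 43.4 points between the S of a PL pig and the LD of another. In PUL these values were 3.30 and 6.91 points. The intervals of both muscles overlapped in 10 of 16 pigs, and in 8 of the 13 pigs that remained without pigs 1, 8 and 14. The largest difference, 20.7 points, was in PL pig 9, and the next, 18.9 points, in PL pig 18. Over all pigs the median absolute difference was 4.01 points, and over those 13 pigs it was 4.69 points. The intervals cover counting error only, since reads without molecular identifiers are not independent molecules.

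The decimals of the deposited values were also examined, a check chosen after the values were seen. The first and the second PPP1R11 entry were each not a whole number in 27 of 32 libraries, yet their sum was exactly whole in 32 of 32. Searching 6589 other genes with fractional values for one that made the first entry whole found the second entry in 26 of the 26 libraries where it was needed, and the next gene in 7 of 26 (whole within 0.02). No fraction of a read was left over once these 2 entries were added.

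NDUFA6 behaved differently, since here the pair sum varied as well. The NDUFA6-like entry was measured at 2.29 to 12.9 CPM in LD of PUL (median 5.57 CPM) and at 2.55 to 13.99 CPM in S of PUL (median 6.77 CPM). In PL it ran from 6.90 to 65.4 CPM in LD (median 16.1 CPM) and from 4.87 to 78.9 CPM in S (median 10.5 CPM). In LD 4 of the 8 PL pigs, and in S 3 of them, exceeded the whole PUL range, and the others overlapped with PUL.

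High values of the NDUFA6-like entry came from few animals. PL pig 15 had 65.4 CPM in LD and 78.9 CPM in S, PL pig 7 had 54.3 and 46.6 CPM, and PL pig 18 had 22.1 and 19.3 CPM. PL pig 8 was high in LD alone, with 42.3 CPM against 10.0 CPM in S. In PL pigs 9, 10, 12 and 14 the entry stayed between 4.87 and 11.0 CPM in both muscles, inside the PUL range.

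The NDUFA6 entry proper was lowest in the animals in which the NDUFA6-like entry was highest. It stood at 0.5262 CPM in LD and 0.741 CPM in S of PL pig 15, at 1.27 and 1.09 CPM in PL pig 7, and at 1.66 CPM in LD but 10.6 CPM in S of PL pig 8. In PUL it ran from 3.68 to 12.7 CPM in LD and from 5.99 to 16.1 CPM in S. PL pig 9, with 13.7 CPM in LD, was the only PL library of either muscle above every PUL library of that muscle, while 3 of 8 PL libraries in LD and 4 of 8 in S lay below every PUL library.

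The sum of both NDUFA6 entries was 14.7 ± 6.07 CPM in LD of PUL and 32.6 ± 20.1 CPM in LD of PL, and 16.99 ± 7.25 CPM in S of PUL and 30.0 ± 23.0 CPM in S of PL (mean ± SD, n = 8 each). It spanned an 11.7-fold range over the 32 libraries, from 6.79 to 79.7 CPM, and its coefficient of variation was 72.7%, against 12.8% for the PPP1R11 sum. The breed ranges overlapped: 4 PL libraries in LD and 2 in S lay above every PUL library.

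**Figure D2:**
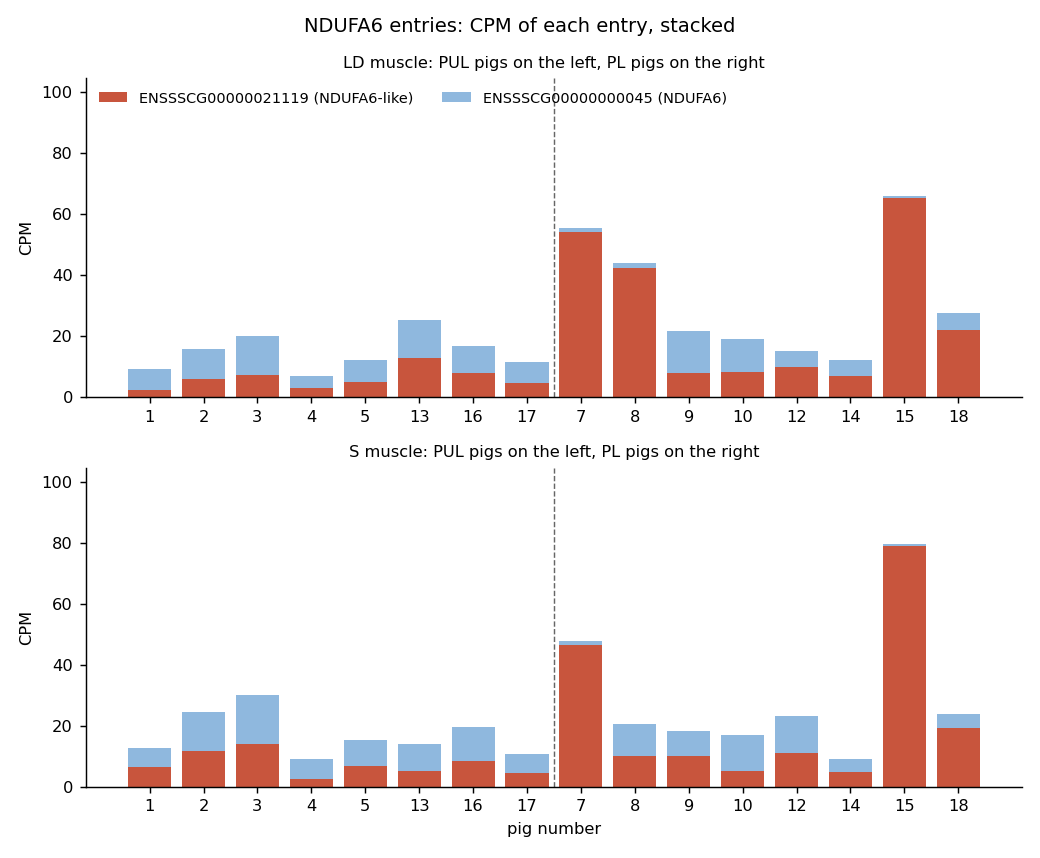
CPM of ENSSSCG00000021119, the NDUFA6-like entry (red), and ENSSSCG00000000045, NDUFA6 (blue), stacked for each pig in LD (top) and S (bottom), with PUL pigs to the left of the dashed line and PL pigs to the right. The bars of PL pigs 7 and 15 are tall and almost wholly red in both muscles, and that of PL pig 8 in LD alone.

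The log2 difference of PL minus PUL was 2.15 (SE 0.51) in LD and 1.64 (SE 0.54) in S for the NDUFA6-like entry, and -0.63 (SE 0.49) and -0.48 (SE 0.45) for NDUFA6. The sum differed by 1.16 (SE 0.35) in LD and 0.83 (SE 0.37) in S. Leaving out PL pig 15 in S lowered the difference of the NDUFA6-like entry to 1.03 and that of the sum to 0.43, the lowest values among the 16 pigs left out in turn.

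As a share of the pair, the NDUFA6-like entry took 25.1% to 52.4% in the PUL libraries and 30.0% to 99.2% in the PL libraries. It held more than 50% of the pair in 1 of 8 PUL libraries of each muscle, in 6 of 8 PL libraries in LD and in 5 of 8 in S. The mean share was 72.0% ± 25.2 in LD of PL against 40.8% ± 7.91 in LD of PUL, and 63.9% ± 25.4 in S of PL against 43.0% ± 7.35 in S of PUL (SD, n = 8 each).

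Agreement between the muscles was close in some pigs and absent in others. Shares of 97.7% in both muscles were found in PL pig 7, of 99.2% and 99.1% in PL pig 15, and of 80.6% in both muscles of PL pig 18. PL pig 8 had 96.2% in LD and 48.7% in S, a difference of 47.6 percentage points, and PUL pig 1 had 25.1% in LD and 52.4% in S. These 2 pigs are among the 3 whose libraries did not resemble each other best. Within PUL the muscles of a pig differed by a median of 9.69 points, no less than the 6.52 points between muscles of different PUL pigs, so muscles of 1 PUL pig were no closer than those of different pigs. In PL the values were 8.18 points within a pig and 29.6 points between pigs. Over 16 pigs the intervals of the muscles overlapped in 8, and over the 13 pigs without pigs 1, 8 and 14 they overlapped in 7. The median absolute difference over all pigs, 9.69 points, was 9.62 points over the 13, and the largest fell to 18.7 points, in PL pig 12.

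**Figure D3:**
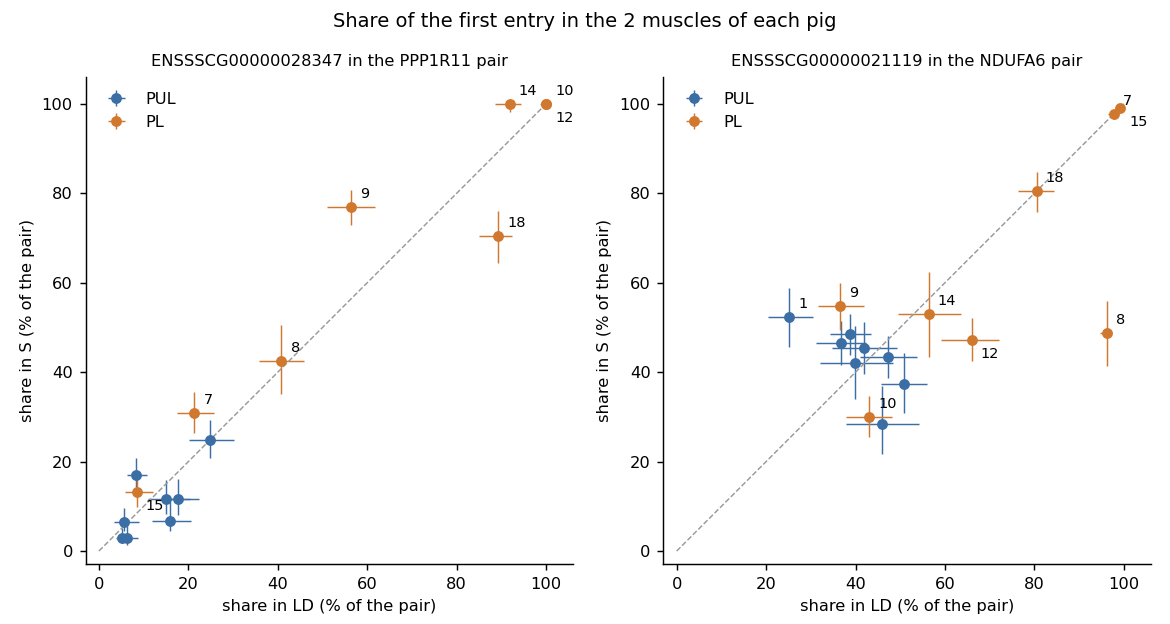
Share of the pair's counts taken by ENSSSCG00000028347 (left) and by ENSSSCG00000021119 (right), in LD (x axis, %) against S (y axis, %) of each pig, with Wilson 95% intervals; PUL is blue, PL is orange, and the dashed line marks equal shares. PL pigs spread along the line from 8.49% to 100% in the PPP1R11 pair, and PL pig 8 lies far from the line in the NDUFA6 pair, at 96.2% in LD and 48.7% in S.

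The shares of the pairs did not rise together in PL. Pigs 7 and 15, with the lowest first-entry shares of PPP1R11 in PL (8.49% to 30.8%), had the highest NDUFA6-like shares, 97.7% to 99.2%. Pigs 10, 12 and 14, with first-entry shares of PPP1R11 of 91.9% to 100%, had NDUFA6-like shares of 30.0% to 66.0%. In PL pig 8 the muscles differed by 1.76 points in the PPP1R11 pair and by 47.6 points in the NDUFA6 pair.

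Added to the NDUFA6-like entry alone, the best of all other genes gave whole values in 7 of 28 libraries, and added to NDUFA6 alone in 7 of 30. The sum of the NDUFA6 entries was exactly whole in 0 of 32 libraries, and whole within 0.02 in 2 of 32. Of 6787 other genes with fractional values, the unnamed ENSSSCG00000000047 made the sum whole within 0.02 in 15 of the 30 libraries where the sum was not, and the next gene in 7 of 30. With ENSSSCG00000000047 added, the sum was whole within 0.02 in 16 of 32 libraries and exactly in 10. That gene was measured at 24.5 to 134 CPM, and its lowest value in each muscle was in PL pig 15, with 24.5 CPM in LD and 37.4 CPM in S. Its log2 difference of PL minus PUL was -0.09 in LD and -0.33 in S.

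ENSSSCG00000023287 was nearly absent from PUL and was either high or absent in PL. In PUL it had counts in 3 of 8 LD libraries and 2 of 8 S libraries, 43.8 and 11.3 expected counts in all, and reached at most 0.856 CPM. In PL pigs 7, 8, 9, 10, 15 and 18 it was measured at 10.1 to 307 CPM in both muscles. In PL pigs 12 and 14 it had no count in either muscle, where 3 counts would have been between 0.132 and 0.353 CPM in the S and between 0.160 and 0.232 CPM in the LD libraries of PL. No pig had the gene above 9 CPM in 1 muscle and below it in the other.

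Presence of ENSSSCG00000023287 thus followed the pig, whereas its level did not. PL pig 8 had 10.1 CPM in LD and 217 CPM in S, a 21.5-fold difference, and PL pig 7 had 31.4 and 130 CPM. In the other 4 pigs LD was the higher: 307 against 84.3 CPM in PL pig 9, 189 against 65.7 CPM in PL pig 10, 174 against 114 CPM in PL pig 15, and 104 against 43.2 CPM in PL pig 18. In the breed comparisons it passed the filter on low counts in LD but not in S, although the same 6 PL pigs had it above 9 CPM in both muscles. In LD, PUL pigs 1 and 5 had 26.5 and 10.7 expected counts, and in S no PUL library had more than 5.78. No fold change against PUL is given for ENSSSCG00000023287. Its values were not whole in 16 libraries, and the gene that came nearest to completing them did so in 6 of 16.

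**Figure D4:**
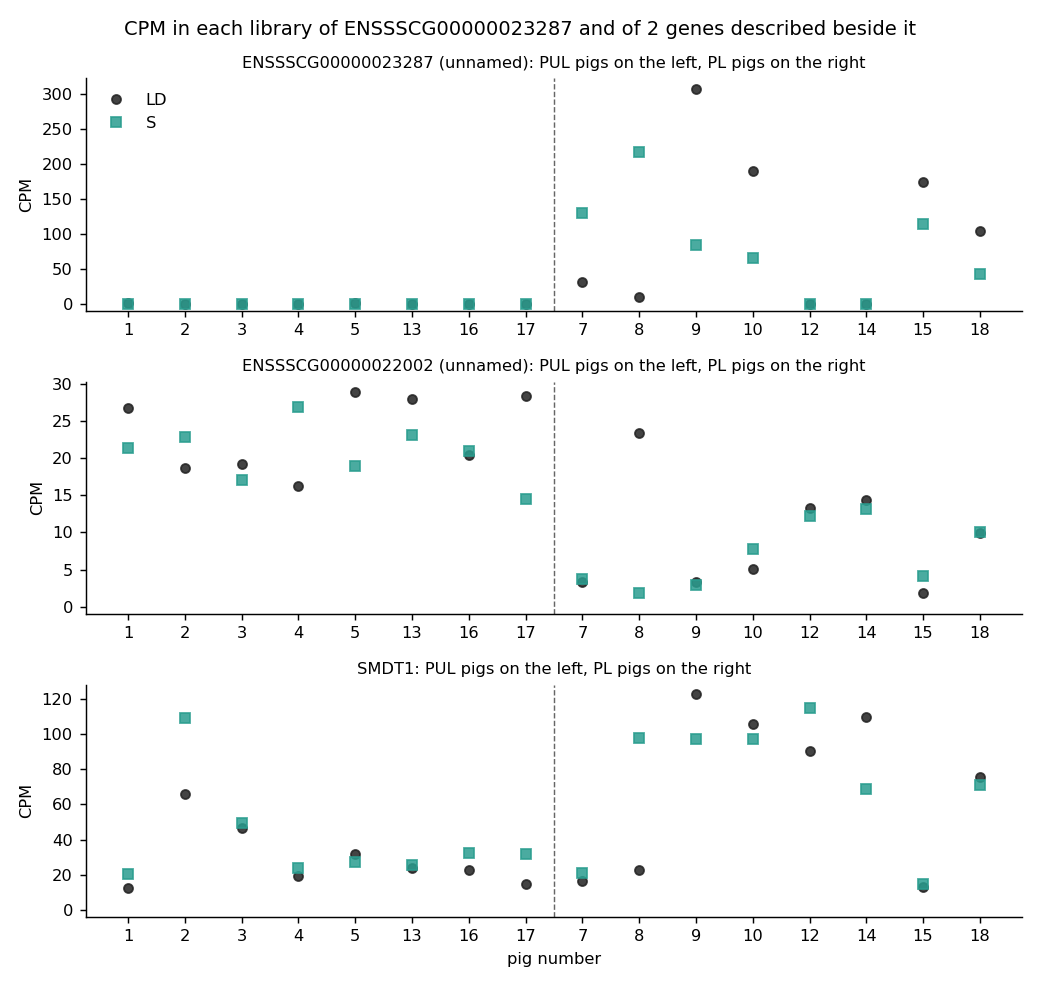
CPM in LD (black circles) and S (green squares) of ENSSSCG00000023287 (top), ENSSSCG00000022002 (middle) and SMDT1 (bottom) in each pig, with PUL pigs to the left of the dashed line and PL pigs to the right. In the top panel 6 PL pigs lie between 10.1 and 307 CPM, while all PUL pigs and PL pigs 12 and 14 lie at or near 0.

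Between the muscles the entries are described by their values alone, since the agreement of the muscles was among the readouts for which they were followed. Over 16 pigs with the pig as a block, S minus LD on the log2 scale was -0.11 (SE 0.17) for the first and -0.17 (SE 0.22) for the second PPP1R11 entry, and -0.06 and -0.05 without pigs 1, 8 and 14. It was -0.02 (SE 0.20) for the NDUFA6-like entry and 0.25 (SE 0.19) for NDUFA6, and 0.05 and 0.17 without the 3 pigs. The sums differed by -0.07 (SE 0.07) for PPP1R11 and 0.02 (SE 0.13) for NDUFA6, and by -0.06 and 0.10 without the 3 pigs. For ENSSSCG00000023287, which had almost no counts in PUL and passed the filter through PL libraries, the value was -0.40 (SE 0.70). It moved to -0.75 without the 3 pigs and ran from -0.91 to -0.12 with single pigs left out. Over all genes, 13 of the 11563 tested between muscles (0.112%) passed the threshold. Without PL pig 14 there were 85 such genes, and without pigs 1, 8 and 14 there were 91.

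Likeness was measured as Pearson's r of log2(CPM + 0.5) over the 32 libraries, which share animals, breed and depth, and it is given as a description. For each of the 4 paired entries, the partner entry was the gene with the lowest r among 11562 genes: -0.82 in the PPP1R11 pair and -0.68 in the NDUFA6 pair. In a pair whose sum stays nearly even, as that of PPP1R11 did, the entries are opposed by construction. The NDUFA6 sum was not even, with an 11.7-fold range over the libraries.

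The first PPP1R11 entry was most like EMC2 (r 0.83), a subunit of the complex that inserts membrane proteins into the endoplasmic reticulum, SMDT1 (0.74), a regulatory subunit of the mitochondrial calcium uniporter, CCDC25 (0.73), the unnamed ENSSSCG00000006753 (0.73) and NEK4 (0.72), a protein kinase. After its partner, LRRC41 (-0.77) and RNF167 (-0.72) were most opposed to it. The second entry was most like ZFAND2A (0.80), LRRC41 (0.80), RNF167 (0.78), FBRS (0.77) and TNPO2 (0.74), a nuclear import receptor, and was opposed to EMC2 (-0.77) and CCDC125 (-0.76).

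The NDUFA6-like entry had weaker likenesses: the unnamed ENSSSCG00000011106 (0.61), DCX (0.58), GSK3B (0.58), the unnamed ENSSSCG00000004754 (0.58) and ENSSSCG00000023287 (0.57), with the unnamed ENSSSCG00000007642 (-0.66) and ENSSSCG00000017523 (-0.65) opposed. NDUFA6 was most like ENSSSCG00000000047 (0.70), the gene that most often completed the sum of its pair. It was followed by PRPF18 (0.63), ENSSSCG00000027095, HTATIP2 and ENSSSCG00000021555 (0.62 each), with ENSSSCG00000003141 (-0.64) and FGF21 (-0.61) opposed.

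ENSSSCG00000023287 was most opposed to the unnamed ENSSSCG00000022002 (-0.86). That gene was measured at 14.5 to 28.9 CPM in PUL and at 1.89 to 23.4 CPM in PL, and PL pig 8 again differed between its muscles, with 23.4 CPM in LD and 1.89 CPM in S. The most similar genes were FAAH (0.76), which breaks down fatty acid amides, SMARCC2 (0.76), a chromatin remodelling subunit, HBB (0.68), the beta chain of haemoglobin, the unnamed ENSSSCG00000007978 (0.67) and CXorf38 (0.66), and ENSSSCG00000021448 and ENSSSCG00000011673 (-0.72 each) were opposed. HBB had a median of 371 CPM in LD of PL against 137 CPM in LD of PUL, and of 338 against 63.6 CPM in S, with overlapping ranges. The 2 red blood cell markers together ran from 30.2 to 281 CPM in LD of PUL, 102 to 1070 CPM in LD of PL, 12.8 to 729 CPM in S of PUL and 171 to 671 CPM in S of PL. Their part in the level of ENSSSCG00000023287 was not tested.

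SMDT1 is the gene next to NDUFA6 in the RefSeq order of the pig genome, and it too differed between animals. It was measured at 12.7 to 66.0 CPM in LD and 20.2 to 109 CPM in S of PUL, and at 12.99 to 122 CPM in LD and 15.0 to 114.5 CPM in S of PL. PL pigs 7 and 15, with the highest NDUFA6-like shares, had the lowest SMDT1 of PL in each muscle, 16.6 CPM in LD and 21.1 CPM in S of pig 7. PL pig 8 had 22.7 CPM in LD and 97.6 CPM in S, the muscles in which its NDUFA6-like share was 96.2% and 48.7%. This order did not extend to all libraries. The lowest SMDT1 of all, 12.7 CPM in LD of PUL pig 1, stood beside the lowest NDUFA6-like share, 25.1%, and over the 32 libraries, which share animals and breed, r between log2(CPM + 0.5) of SMDT1 and that share was -0.25. The log2 difference of PL minus PUL for SMDT1 was 1.22 in LD and 0.87 in S.

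Ratios of the highest to the lowest library ran from 2.22 (PGBD1) to 18.7 (UBD) among the neighbours of PPP1R11. Among those of NDUFA6 they ran from 1.96 (SNU13) to 9.64 (SMDT1), with SREBF2 at 9.57. The neighbours are the nearest genes on each side that could be matched by symbol and passed the filter, not the nearest genes as such: those of PPP1R11 lay 4 to 37 genes away in the RefSeq order and those of NDUFA6 1 to 19. Of 9 such genes near NDUFA6 with counts in every library (POLDIP3, A4GALT, ARFGAP3, PACSIN2 and TTLL1 on one side, SMDT1, SREBF2, SNU13 and XRCC6 on the other), SMDT1 and TTLL1 (log2 difference 0.44) had an unadjusted p under 0.05 between breeds in LD and SMDT1 alone in S, and none passed the threshold. Of the 10 on either side of PPP1R11 (GABBR1, UBD, ZSCAN12, ZSCAN31 and PGBD1, and TRIM26, TRIM39, RPP21, GNL1 and ABCF1), none had an unadjusted p under 0.05 in either muscle. Their log2 differences of PL minus PUL ran from -0.48 to 0.29 in LD and from -0.42 to 0.64 in S, and their medians were -0.13 and -0.10. Over all genes tested, 7.15% in LD and 11.7% in S had an unadjusted p under 0.05, and 0% passed the threshold in either muscle. With so few neighbours, these counts do not set the neighbours apart from other genes.

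The NDUFA6-like entry was selected on its breed difference in LD, so the size of that difference cannot be compared with that of other genes. The other subunits of complex I are given as background. Of 37 listed subunits, 20 were found by name and all 20 were tested. None passed the threshold in any of the 3 comparisons. Over all genes, 0% passed it between breeds in either muscle and 0.112% between muscles, and these shares stand beside the lists below as well. In LD, 17 were higher and 3 lower in PL, with log2 differences from -0.06 (NDUFS5) to 0.37 (NDUFB1) and a median of 0.11, beside a median of 0.01 over all genes tested. In S, 4 were higher and 16 lower in PL, from -0.39 (NDUFS6) to 0.23 (NDUFS1), with a median of -0.12 beside 0.02 over all genes. Between the muscles all 20 had values above 0 in S, from 0.08 (NDUFB1) to 0.28 (NDUFA8), with a median of 0.18 beside -0.01 over all genes and a lowest adjusted p of 0.632 from edgeR's quasi-likelihood test.

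**Figure D5:**
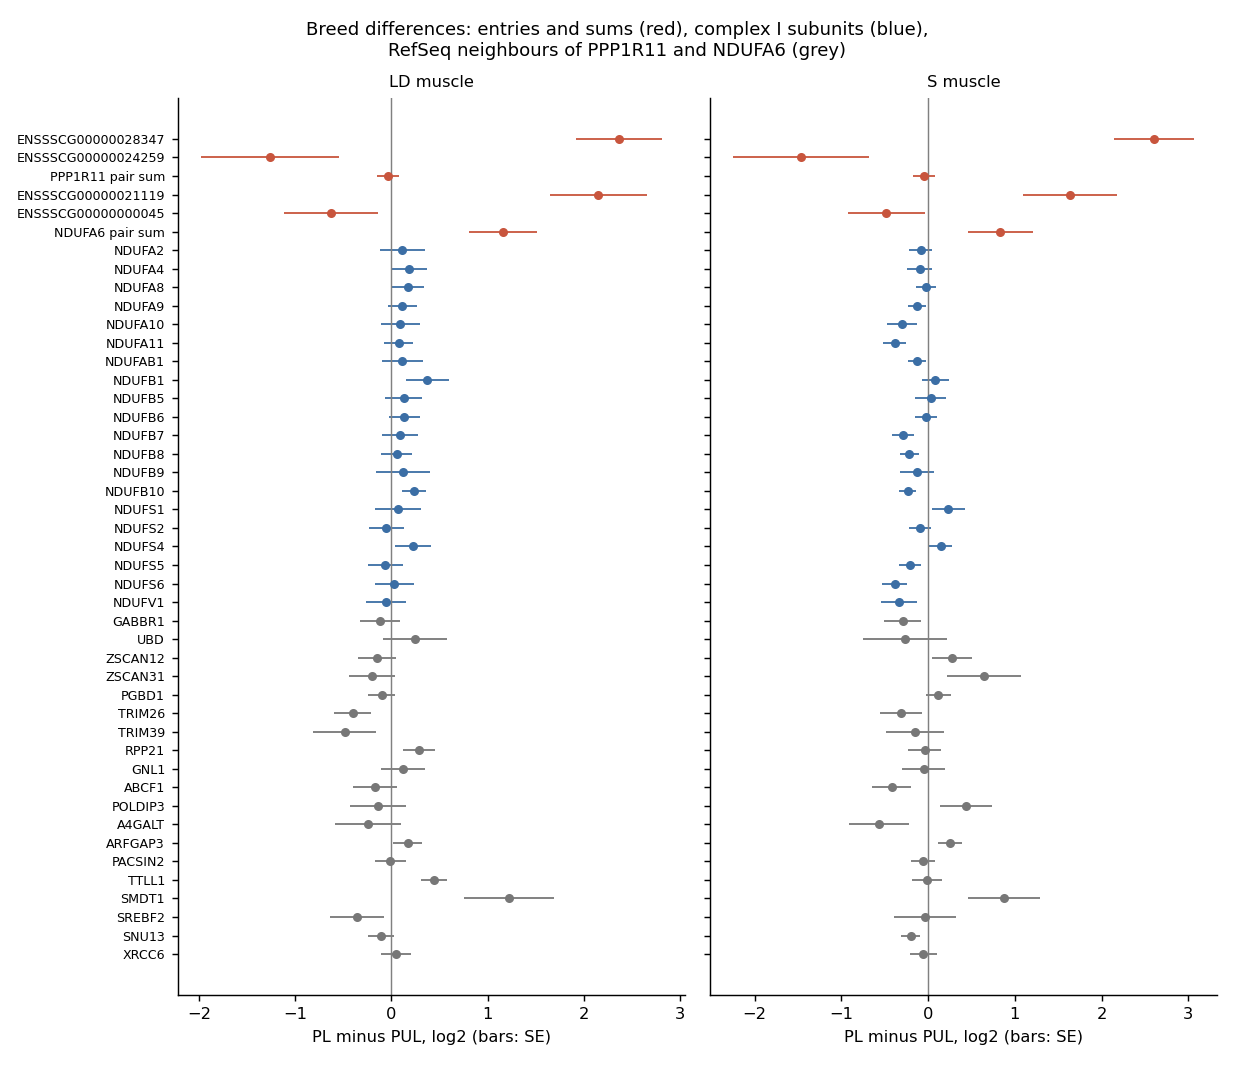
Log2 difference of PL minus PUL (x axis; points with bars of 1 SE) in LD (left) and S (right) for the 4 paired entries and the pair sums (red), 20 other complex I subunits (blue) and 19 RefSeq neighbours (grey). The PPP1R11 sum lies at -0.03 and -0.05 between its opposed entries, and the blue points lie between -0.39 and 0.37.

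Complex I assembly factors, which help build the enzyme, were found for 11 of 15 symbols, and the 10 that were tested had medians of 0.03 in LD and 0.05 in S for PL minus PUL and of -0.01 for S minus LD. Of the LYR family list, 2 of 9 were found and tested, with medians of -0.00 in LD and -0.14 in S between breeds and of 0.01 between muscles. None of either list passed the threshold.

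Protein phosphatase 1 acts as a catalytic subunit bound to 1 or more regulatory subunits such as PPP1R11. The 3 catalytic subunits of protein phosphatase 1 had log2 differences of PL minus PUL from -0.07 to 0.30 in LD and from -0.21 to 0.46 in S. Of 33 listed regulatory subunits, 23 were found by name and 21 tested in LD, 20 in S and 22 between muscles, with medians of -0.01, -0.03 and 0.01, and none passed the threshold. PPP1R35 had the lowest value in S, -0.91 (edgeR's adjusted p = 0.219), and PPP1R3C, which targets the phosphatase to glycogen, stood at 0.50 for S minus LD (edgeR's adjusted p = 0.440). Of 22 listed genes of the Hippo pathway, a growth control pathway that the study discusses with PPP1R11, 15 were tested. Their medians were 0.10 in LD and 0.20 in S between breeds and -0.00 between muscles, and none passed the threshold. Of the Hippo targets named here, CCN2 and CCN1 had the same sign in each comparison, and ANKRD1 had the opposite sign. ANKRD1 stood at -1.15 (SE 0.40) in LD and 0.67 (SE 0.55) in S for PL minus PUL. For S minus LD it stood at -1.25 (SE 0.40). In the same order, CCN2 stood at 0.82 (SE 0.54), -0.24 (SE 0.45) and 0.91 (SE 0.37). CCN1 stood at 0.24 (SE 0.64), -0.33 (SE 0.45) and 0.57 (SE 0.27).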

How the data were processed

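Total RNA of 32 muscle samples was depleted of ribosomal RNA, and 81 bp single reads were sequenced and trimmed by the authors. The authors aligned them with Bowtie 2 to Sscrofa10.2 with Ensembl genes and deposited RSEM expected counts per gene, which are not whole numbers where reads were divided among genes, and counts per isoform rounded to whole numbers. The counting gave no strand information in the sources used here. All columns of the gene table were assigned by label to a muscle, breed and pig; no column was left without a sample (0). The isoform counts, deposited by the authors, served for 1 check: the second PPP1R11 entry, both NDUFA6 entries and ENSSSCG00000023287 each matched exactly 1 isoform row, and the first PPP1R11 entry matched 0 rows alone.

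Expected counts were rounded for edgeR 4.0.16 (quasi-likelihood test, TMM scaling, filterByExpr, R 4.3.3) and left unrounded for CPM, shares and whole-number checks. S was compared with LD over all 32 libraries, blocked by pig, since the labels give 1 number to both muscles of an animal. PL was compared with PUL in each muscle, without a block: replicate numbers there join different animals. P-values were adjusted by Benjamini-Hochberg over all genes tested, and genes at an adjusted p at or under 0.05 and a fold change of at least 1.3 were called. For the entries and sums only the fitted differences are given, without their p-values. DESeq2 1.42.0 was an alternative. On simulated counts with 200 genes changed, the comparison of muscles (11384 genes) recovered 74% of 2-fold and 96% of 4-fold changes. It made 5 false calls among 175. Those counts were drawn without differences between pigs and without doubtful pairings, so these rates need not hold for the real muscle comparison. The breed comparisons recovered 48% and 88% in LD (10551 genes) and 54% and 95% in S (10549 genes). There, 5 of 141 calls in LD and 11 of 160 calls in S were false.

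Shares carry Wilson 95% intervals on rounded counts, computed with scipy 1.17.1. Floors are 3 counts. Depth was 8821273 to 24761853 expected counts a library, and 157 to 754 expected counts a library for the PPP1R11 pair.

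The entries, pathway lists and cell type markers were chosen with earlier results of these data known. Named beside the entries were the 5 most similar and 3 most opposed genes of each, the 5 nearest tested genes on each side, matched by symbol in RefSeq's order (another assembly, Sscrofa11.1, so no coordinates are given; 1 of the 20 is not reported here), and list members past the threshold. As none passed, some list members with the lowest or highest values were named, and the Hippo targets ANKRD1, CCN2 and CCN1. This choice was made with the values in view, and not every member with an extreme value was named. The second PPP1R11 entry, NDUFA6, ENSSSCG00000023287 and the whole-number check were also chosen after values were seen. Of the symbols given, GZMA is the only one that names 2 entries, and their mean sum of 8 counts was too low for comparison with other pairs. Alternatives were other scalings, no filter, DESeq2, other blocks, single breeds and leaving out pigs. The study's fold changes and p-values were not used.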

Additional observations from a re-analysis of the deposited data

Results flagged for a closer look

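Outlying samples were looked for within each group of 8 libraries, in the 5 entries, the pair sums and the shares, 36 groups in all. The sum of the PPP1R11 entries in LD of PUL was lowest in pig 5, at 15.4 CPM, with the nearest other pig at 20.7 CPM. That gap was 0.587 of the range of the group. The same pig also had the lowest sum in S, 14.7 CPM. Such a flag is set in about 1 in 20 groups of independent, normally distributed values. The 36 groups shared libraries, so this rate need not apply, and no pattern is read from 1 flag.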

How the results depend on the processing

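The small differences between muscles changed sign under some alternatives. For the NDUFA6-like entry S minus LD was 0.0312 without the pig as a block and 0.33 within PUL. It was 0.0481 without the 3 pigs of doubtful pairing, and -0.11 to 0.10 with single pigs left out. For the NDUFA6 sum it was -0.17 within PL and -0.0194 to 0.0945 with pigs left out. For the first PPP1R11 entry it was 0.10 within PL.

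Without the pig as a block, 16 genes differed between muscles, against 13 in the paired fit. Counts were 60 by DESeq2, 91 without pigs 1, 8 and 14, and 4 to 85 with single pigs left out; the value of 85 was without PL pig 14. Between breeds, 0 genes in each muscle became 19 in LD and 103 in S by DESeq2, 4 and 4 with no filter, 1 and 1 without those 3 pigs, and 1 in S with RLE size factors. A block on the replicate number, which joins unrelated animals, kept both counts at 0 and the PPP1R11 sum in LD at -0.02. It moved the second PPP1R11 entry from -1.26 to -2.23 in LD and from -1.47 to -2.57 in S, and NDUFA6 from -0.63 to -1.07 in LD and from -0.48 to -0.83 in S.

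The breed difference of the PPP1R11 sum in LD was -0.24 with library size alone and -0.09 to -0.00 with pigs left out; in S it ran from -0.10 to 0.01. The share of the first PPP1R11 entry differed between breeds by 46.0 to 59.1 points in LD and 51.4 to 63.8 points in S with pigs left out, and the NDUFA6-like share by 27.3 to 36.2 and 15.9 to 25.8 points. Summed counts gave 42.6 and 32.8 points for the NDUFA6-like share, against 31.2 and 20.9 points as means over pigs. The breed difference of the NDUFA6 sum ran from 0.93 to 1.31 in LD and 0.43 to 0.99 in S with pigs left out. The causes were not tested. The PPP1R11 pair had 157 to 754 counts a library, and shares away from 0% and 100% had intervals of several points.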
